A study of Mus musculus with 12 samples.

Results

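Cytosolic ribosomal proteins are the protein components of the ribosome that translates messenger RNA in the cytoplasm. Their genes were taken as the entries of the deposited tables whose symbol is Rpl or Rps with a number and at most 1 further letter a, l or x, together with Rpsa, Rplp0, Rplp1 and Rplp2. This rule gave 82 genes among 46769 distinct entries, of which 81 stand in the table of 2MUT and Control and 22 in the table of the 2-HG treatment. Entries shared by both tables number 21, another 60 stand only in the first, and Rpl32l stands only in the second. The rule uses symbols alone and no measured value.

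The ribosome has a large subunit, which joins amino acids, and a small subunit, which reads the messenger RNA, and each is built from ribosomal RNA and a set of proteins of its own. Every growing cell makes these proteins, and their mRNAs commonly begin with a run of pyrimidines, the 5′ terminal oligopyrimidine tract, through which mTOR signalling controls their translation. In fibroblasts, as in other cells, their output is known to follow growth conditions, and several free ribosomal proteins bind Mdm2 when assembly of the ribosome is disturbed.

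All libraries came from MEF cells, fibroblasts of C57BL/6 mouse embryos that had become immortal spontaneously during serial passage. 2MUT cells carried a retroviral vector for a cancer-associated mutant of human IDH2 and were kept as a selected pool, and Control cells carried the mock vector. In the other experiment, the parental cells were treated for 24 h with 300 μM of 2-HG in a membrane-permeant form, 2-HG(+), or were labelled as treated with DMSO for 24 h, 2-HG(-), which the study also calls non-treated. Each of the 4 groups had 3 libraries, and because no label says that these came from separate cultures or animals, p-values measure the spread between these samples, which may be technical. The libraries were made with an Ion AmpliSeq kit, which amplifies a short target of each transcript, and the values are RPM, reads on a gene per 1000000 reads on all genes of the library.

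Depth was between 6472439 and 7313602 reads on genes in the first experiment and between 14959318 and 18363768 in the second, so that 3 reads, taken as the floor of detection, were between 0.41 and 0.464 RPM and between 0.163 and 0.201 RPM. These floors cover counting error only. The listed fibroblast markers summed to between 15168 and 17153 RPM in Control, between 13428 and 13858 RPM in 2MUT, between 21879 and 23511 RPM in 2-HG(-) and between 15289 and 16303 RPM in 2-HG(+), and of the 10 tested 8 were lower and 1 was higher in 2MUT, and 6 were lower and 1 was higher in 2-HG(+). Of all genes tested, 33.8% and 32.8% were called in either direction. Marker lists of epithelial, endothelial, blood and neural or muscle cells each summed to at most 26.0 RPM in any library. Whether the fall of fibroblast markers has a part in the results on ribosomal proteins was not tested. RPM is a share of the reads, and fewer cells of a type and less RNA per cell cannot be told apart in such bulk samples.

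Promoter sequences are given for genes that passed the test in at least 1 comparison or in the difference between them, because ribosomal protein genes are known for a common promoter form with a pyrimidine run at the start of transcription. The windows are from RefSeq on GRCm38.p6 and reach from 100 bases before to 20 bases after the annotated start. Capitals mark CCGGAAG, the core of an ETS factor motif, searched on both strands, or a run of at least 6 pyrimidines coming within 10 bases of the start.

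Rps9 (chr7:3703941-3704060, plus strand): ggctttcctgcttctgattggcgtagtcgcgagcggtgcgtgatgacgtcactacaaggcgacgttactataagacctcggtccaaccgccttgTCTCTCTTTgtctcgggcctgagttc
Rps3 (chr7:99483690-99483809, minus strand): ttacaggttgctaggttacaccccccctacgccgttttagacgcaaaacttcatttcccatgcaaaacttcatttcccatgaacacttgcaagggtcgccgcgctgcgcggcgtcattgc
Rps27l (chr9:66945986-66946105, plus strand): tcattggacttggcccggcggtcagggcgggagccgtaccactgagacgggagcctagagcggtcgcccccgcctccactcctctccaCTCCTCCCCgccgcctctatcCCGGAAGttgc
Rps15 (chr10:80292331-80292450, plus strand): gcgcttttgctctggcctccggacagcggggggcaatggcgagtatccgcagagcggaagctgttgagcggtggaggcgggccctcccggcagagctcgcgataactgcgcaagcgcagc
Rpl4 (chr9:64173287-64173406, plus strand): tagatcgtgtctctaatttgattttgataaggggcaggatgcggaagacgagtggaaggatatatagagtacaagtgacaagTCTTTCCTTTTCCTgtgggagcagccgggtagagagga
Rpl34 (chr3:130730379-130730498, minus strand): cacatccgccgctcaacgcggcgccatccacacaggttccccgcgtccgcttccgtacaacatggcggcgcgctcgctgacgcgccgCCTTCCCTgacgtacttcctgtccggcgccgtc
Rpl39l (chr16:10170128-10170247, plus strand): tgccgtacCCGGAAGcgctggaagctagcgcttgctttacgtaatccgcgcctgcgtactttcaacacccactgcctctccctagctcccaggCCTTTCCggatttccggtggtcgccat

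These 7 windows were picked from the 12 windows of the matched genes of at least 100 RPM, 1 for each gene. Rpl41 also passed, but its window lies mostly in an annotated untranslated region and is not printed. The pyrimidine run near the start was found in 5 of the 7 and in 7 of the 12. The windows of Rps3 and Rps15 held neither such a run nor CCGGAAG. The Rpl41 window, the other window of Rps27l and 1 of the Rps21 windows held no run near the start. Over the 73 windows of 61 matched ribosomal protein genes, each searched over 300 bases, CCGGAAG was present in 35.6%, against 8.86% of all 32851 windows, and the pyrimidine run in 53.4%, against 30.0%. On both strands, the E-box CACGTG was present in 11.0% against 7.15% and TATAAA in 9.59% against 13.6%. CTTCCGG, the reverse of CCGGAAG on the other strand, can share bases with a pyrimidine run. A match describes letters in a window and is not evidence of a bound factor, and no match of CCGGAAG says only that these letters are not there. No match of a run says only that none came within 10 bases of the annotated start, and runs elsewhere in a window are not marked. Annotated starts differ, and GENCODE M21 begins Rps15 at 80292453, past its printed window. Rpl30, Rpl32, Rpl8 and Rps14 are named without a window.

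The genes fell into separate classes of level. In the table of 2MUT and Control, 54 of the 81 genes had a mean under 1 RPM over the 6 libraries, 12 had between 1 and 10 RPM, Rpl30 had between 17.4 and 24.4 RPM in its libraries, and 14 had at least 100 RPM, from 211 RPM for Rps27l to 3674 RPM for Rpl4. Rpl39, Rpl24 and Rpl10l were listed at 0 in all 6 libraries. Rpl39, a small protein at the exit tunnel, and Rpl24 belong to the ribosome of every cell, so a listing at or near 0 here is not absence of the mRNA. Gapdh, a glycolytic gene that every cell uses, was likewise listed between 1.03 and 3.28 RPM in this table, whereas Actb stood at 6437 RPM or more in each library. Which transcripts had an amplified target in either experiment was not analysed here.

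The low class holds most of the known subunit genes. Rpsa, which binds at the exit side of the small subunit, was between 0 and 0.688 RPM, and Rplp1 and Rplp2, the acidic proteins of the stalk that recruits elongation factors, were at most 0.732 and 0.444 RPM. Rps6, the classical substrate of S6 kinase, was between 0.142 and 0.586 RPM. These 54 genes were not tested, because their values lie near the floor of 3 reads. All genes under 100 RPM together had sums of 76.3 ± 7.15 RPM for Control and 82.3 ± 4.61 RPM for 2MUT (SD over 3 libraries), while the corresponding sums were 23280 ± 991 and 19290 ± 42.8 RPM for the 14 genes of at least 100 RPM.

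In the table of the 2-HG treatment, 14 of 22 genes had at least 100 RPM, 3 had between 1 and 10 RPM, and 5 had less than 1 RPM, namely Rpl22, Rps2, Rpl10l, Rpl3l and Rps4l, the last annotated as a transcribed processed pseudogene. Rpl34 is listed only in the first table, and Rpl30, low in the first, had between 148 and 200 RPM in the libraries of the second. The other 13 genes of at least 100 RPM were the same in both tables. Rps19, mutated in Diamond-Blackfan anaemia, stood between 0 and 0.296 RPM in the first table and has no entry of its own in the second. Each change is therefore computed within a table, and because a value counts reads of 1 amplified target, levels of different genes are not compared as amounts of mRNA.

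**Figure D1:**
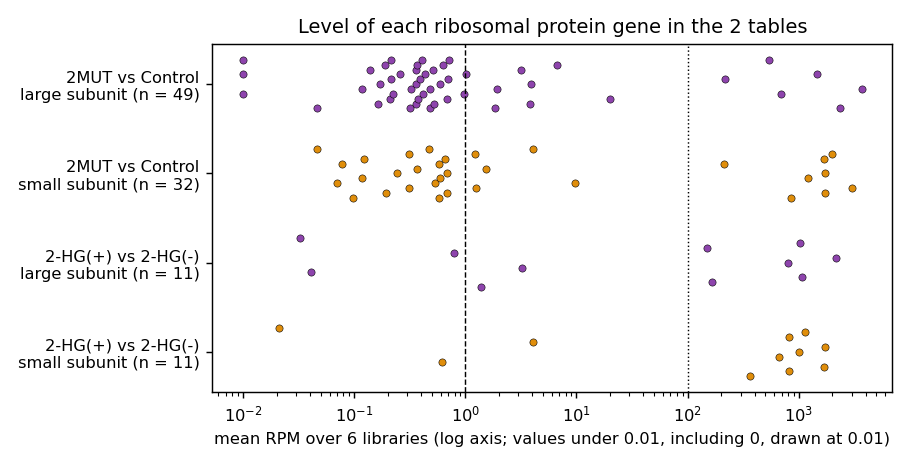
Mean RPM of each ribosomal protein gene over the 6 libraries of a table, on a log axis, by table and subunit, with each point a gene and dashed and dotted lines at 1 and 100 RPM. In the table of 2MUT and Control 54 of 81 genes lie under 1 RPM and 14 lie at 100 RPM or more, and in the table of the 2-HG treatment these are 5 and 14 of 22.

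In 2MUT cells, ribosomal protein genes with a clear signal were lower than in Control. Of the 14 genes of at least 100 RPM, 8 were lower and 0 were higher, with Rps9 falling to 0.593 and Rpl41 to 0.674 times its Control level. Among all 27 genes tested, those whose mean reached 1 RPM, 8 were lower and 3 were higher by limma on log2(RPM + 1) with a Benjamini-Hochberg adjusted p under 0.05 over all genes, and 2 of the 3, Rpl11 and Rps12, reached that mean only through the 2MUT libraries. In the same test 17.3% of 11065 genes were lower and 16.5% were higher, 33.8% in all, and of the 2240 genes of at least 100 RPM 25.5% were lower and 20.9% were higher, 46.4% in all. The count of 0 higher genes of at least 100 RPM was also 0 at an unadjusted p under 0.05 by limma, and 0 by edgeR and by DESeq2, but it was 1 without Control replicate 3 and with the replicate block, where Rpl32 passed. The 8 lower genes became 5 by the per-gene test without moderation that the study used.

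The median log2 fold change was -0.29 over the 14 genes of at least 100 RPM, against -0.02 over all genes of that level. Of these 14, 5 of the 8 in the small subunit were lower, with a median of -0.35, and 3 of the 6 in the large subunit, with a median of -0.25. Over the 27 genes, among them the pair that the 2MUT libraries brought past the filter, the median was -0.24, and -0.14 without Control replicate 2, against 0.01 over all genes tested.

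The summed level of the 81 genes was 22211, 23995 and 23863 RPM in Control and 19345, 19421 and 19351 RPM in 2MUT. All 2MUT libraries were below all Control libraries and lay closer to each other than the Control libraries did. The sum was thus 2.34% of the reads in Control and 1.94% in 2MUT, a log2 ratio of -0.27 that ranged from -0.30 to -0.25 with each library left out.

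The largest fall among the well measured genes was in Rps9, on chromosome 7 from 3703993 to 3706897 in GRCm38, a protein of the body of the small subunit near the mRNA entry. It stood at 2867, 2547 and 2170 RPM in Control and at 1506, 1451 and 1512 RPM in 2MUT. The Control libraries were spread more widely and were all above the 2MUT libraries, which lay close together. The log2 fold change was -0.75 (standard error, SE, 0.10 and adjusted p = 0.00027 by limma with Benjamini-Hochberg) and lay between -0.86 and -0.66 with each library left out.

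Rps14, which sits on the platform of the small subunit and is lost in the 5q- syndrome, was 934, 1103 and 986 RPM in Control and 724, 723 and 662 RPM in 2MUT. The groups did not overlap, and the log2 fold change was -0.52 (SE 0.09 and adjusted p = 0.0014 by limma with Benjamini-Hochberg).

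Rps3, which lines the mRNA entry and is also known for a role in DNA repair, was 1715, 2072 and 1978 RPM in Control and 1485, 1527 and 1468 RPM in 2MUT. Its lowest Control library was above its highest 2MUT library, and the log2 fold change was -0.36 (SE 0.09 and adjusted p = 0.010 by limma with Benjamini-Hochberg). The Rps9, Rps14 and Rps3 falls passed the threshold in all 6 fits that left out 1 library. The Rps3 call was lost with quantile normalization, at -0.25 (limma adjusted p = 0.13), without the mean-variance trend of limma (adjusted p = 0.058) and by the unmoderated test (adjusted p = 0.057 after Benjamini-Hochberg over all genes).

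Rps27l, a close relative of Rps27 known as a p53 target that binds Mdm2, was 248, 230 and 227 RPM in Control and 213, 186 and 164 RPM in 2MUT. The groups did not overlap, but the highest 2MUT library came close to the lowest Control library. The log2 fold change was -0.33 (SE 0.11 and adjusted p = 0.037 by limma with Benjamini-Hochberg), and the call was lost without 2MUT replicate 2 or 3 or Control replicate 1 or 2, with limma adjusted p between 0.060 and 0.16 and log2 fold changes between -0.35 and -0.24. It was also lost with quantile normalization, at -0.30 (limma adjusted p = 0.058), without a filter (limma adjusted p = 0.057), without the mean-variance trend (limma adjusted p = 0.099) and by the unmoderated test (adjusted p = 0.12 after Benjamini-Hochberg over all genes).

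Of the large subunit, Rpl4, on chromosome 9 from 64173375 to 64178666, has an extension that reaches the exit tunnel for the new peptide. It stood at 3958, 4042 and 4471 RPM in Control and at 3260, 3175 and 3139 RPM in 2MUT. The groups were well apart, with a log2 fold change of -0.38 (SE 0.08 and adjusted p = 0.0048 by limma with Benjamini-Hochberg). Rpl41, a very short peptide at the bridge between the subunits, was 253, 292 and 233 RPM in Control and 193, 168 and 162 RPM in 2MUT. Its 2MUT libraries were all lower, with a log2 fold change of -0.57 (SE 0.11 and adjusted p = 0.0026 by limma with Benjamini-Hochberg), and both calls were kept with any 1 library left out.

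Rpl34, a large subunit protein, was 579, 643 and 556 RPM in Control and 521, 483 and 486 RPM in 2MUT. The groups did not overlap, and the log2 fold change was -0.25 (SE 0.09 and adjusted p = 0.048 by limma with Benjamini-Hochberg). This call held in 1 of the 6 fits with a library left out, that without Control replicate 3, while in the other 5 the log2 fold change was between -0.29 and -0.19 and the limma adjusted p between 0.056 and 0.14. It was lost as well with the 75th percentile shift, without a filter, without the trend (limma adjusted p = 0.061, 0.092 and 0.14) and by the unmoderated test (adjusted p = 0.083). The row Rpl34-ps1, a pseudogene whose reads could be those of Rpl34, fell from 108 to 71.7 RPM, a log2 fold change of -0.58 (adjusted p = 0.0027 by limma with Benjamini-Hochberg).

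Rpl8, next to the peptidyl transferase centre, did not pass although its groups did not overlap, at 1432, 1673 and 1633 RPM in Control and 1418, 1219 and 1372 RPM in 2MUT. Its log2 fold change was -0.24 with a 95% interval from -0.45 to -0.03 (adjusted p = 0.072 by limma with Benjamini-Hochberg). It passed without Control replicate 1, at -0.31 with an adjusted p of 0.028. Rpl32, of the large subunit, went the other way, with 1764, 2094 and 2562 RPM in Control and 2300, 2609 and 2682 RPM in 2MUT, overlapping ranges and a log2 fold change of 0.26 (95% interval -0.02 to 0.53, adjusted p = 0.14 by limma with Benjamini-Hochberg), which passed at 0.39 without Control replicate 3 (limma adjusted p = 0.013).

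Rps15 and Rps21, of the small subunit, had negative log2 fold changes that did not pass. Rps15, which acts in the export of the small subunit precursor, had -0.18 (95% interval -0.37 to 0.02) and Rps21 had -0.12 (-0.39 to 0.14). Without Control replicate 1, Rps15 passed at -0.24 (limma adjusted p = 0.040). Rpl39l, a paralog of Rpl39 known mainly from testis, was 900, 656 and 582 RPM in Control and 577, 648 and 772 RPM in 2MUT. Control replicate 1 stood highest and the groups overlapped, with a log2 fold change of -0.08 (95% interval -0.42 to 0.25) that was 0.10 without that library and 0.015 without 2MUT replicate 1. Rps15-ps2, a pseudogene row, fell from 188 to 114 RPM, a log2 fold change of -0.73 (adjusted p = 0.0021 by limma with Benjamini-Hochberg). Of the 3 pseudogene rows of at least 10 RPM in this table, Rps19-ps3 rose from 33.3 to 45.9 RPM, by 0.45 on the log2 scale (adjusted p = 0.019 by limma with Benjamini-Hochberg).

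The 3 genes that were higher in 2MUT are measured by few reads. Rpl11, which with Rpl5 and the 5S ribosomal RNA can bind Mdm2, had 1, 8 and 2 reads in Control and 20, 25 and 21 reads in 2MUT, or 0.148, 1.14 and 0.273 RPM and 3.09, 3.66 and 2.89 RPM. The groups did not overlap, and the log2 fold change was 1.52 (SE 0.29) on the scale with 1 RPM added, which understates the change of low genes. Rpl22, an RNA-binding protein of the large subunit that is not essential in mice, had 18, 17 and 22 reads in Control and 28, 36 and 39 in 2MUT, a log2 fold change of 0.69 (adjusted p = 0.024 by limma with Benjamini-Hochberg). Rps12, a small subunit protein, had 0, 4 and 5 reads in Control and 6, 13 and 25 in 2MUT, a log2 fold change of 1.08 (SE 0.35).

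Rpl11 and Rps12 reached the filter of 1 RPM only through the 2MUT libraries, since their Control means were 0.520 and 0.418 RPM. They could therefore enter the test only by being high in 2MUT, and their values are a description that supports no call. Without 2MUT replicate 3, Rps12 was under the filter. Rpl22 was above 1 RPM in every library, but its call was lost without 2MUT replicate 2 or 3 or Control replicate 1 or 2 (limma adjusted p between 0.053 and 0.084, log2 fold changes between 0.64 and 0.69), by DESeq2 (adjusted p = 0.068) and without a filter (limma adjusted p = 0.074). The count of higher genes was 1 without 2MUT replicate 2, 2MUT replicate 3 or Control replicate 1.

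The remaining genes between 1 and 100 RPM did not pass. Rplp0, the base of the stalk, was 3.55, 3.56 and 5.06 RPM in Control and 3.40, 2.05 and 1.38 RPM in 2MUT, a log2 fold change of -0.66 (adjusted p = 0.081 by limma with Benjamini-Hochberg). Rps20 had -0.60 (adjusted p = 0.067 by limma with Benjamini-Hochberg), Rps4x, from the X chromosome, had 0.26 and Rpl30, which binds and regulates its own transcript in yeast, had 0.28. Rplp0 passed without 2MUT replicate 1, at -0.90, and Rps20 without 2MUT replicate 3, at -0.78 (limma adjusted p = 0.035 and 0.042). Rpl14, Rpl18, Rpl21, Rpl37, Rps7 and Rps26 lay between -0.49 and 0.09.

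**Figure D2:**
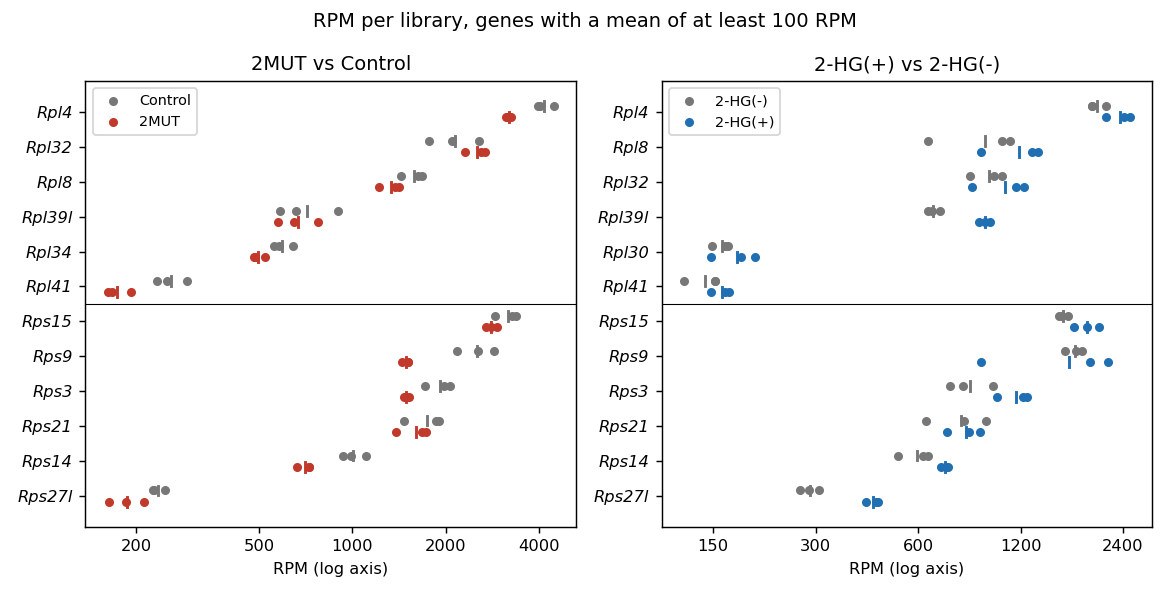
RPM of each library on a log axis for 12 of the 14 genes whose mean reached 100 RPM in each table, with large subunit genes above the line, a point for each library and a bar at the mean of the 3 libraries of a group. Rps9, Rps14 and Rpl41 in 2MUT lie below all Control libraries, Rps27l and Rpl39l in 2-HG(+) lie above all 2-HG(-) libraries, and 1 2-HG(+) library of Rps9 lies apart at 918 RPM.

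With 2-HG, ribosomal protein genes were higher where they passed. Of 17 genes tested, 6 were higher with 2-HG and 0 were lower by limma with a Benjamini-Hochberg adjusted p under 0.05, and 16 of the 17 had a positive log2 fold change. Among all 10384 genes tested, 16.1% were higher and 16.7% were lower, 32.8% in all. Of the 14 genes of at least 100 RPM, 5 were higher and 0 were lower, against 22.9% and 14.8% of the 2269 genes of that level, 37.7% in all. The counts of 0 lower genes were also 0 at an unadjusted limma p under 0.05 and 0 by edgeR and by DESeq2, while the count of 6 higher genes was 9 by DESeq2 and with quantile normalization and 4 by the unmoderated per-gene test, which lost Rps3 and Rps4x. The called share of the 14 genes, 35.7%, was near that of all genes of their level, while every call was in the direction of higher values.

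The median log2 fold change was 0.28 over the 17 genes, against -0.02 over all genes tested, and 0.26 over the 14 genes of at least 100 RPM, against 0.07 over all genes of that level. In the small subunit 5 of 9 genes were higher, with a median of 0.43, and in the large subunit 1 of 8, with a median of 0.20. The summed level of the 22 genes was 12911, 11685 and 12653 RPM in 2-HG(-) and 14083, 14898 and 15688 RPM in 2-HG(+). The groups of sums did not overlap, and the share of reads was 1.24% and 1.49%, a log2 ratio of 0.26 that ranged from 0.22 to 0.30 with each library left out.

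Rps27l had the most distinct rise, on chromosome 9 from 66946086 to 66949516. It was 287, 308 and 270 RPM in 2-HG(-) and 456, 451 and 423 RPM in 2-HG(+). The groups were far apart relative to their spread, with a log2 fold change of 0.62 (SE 0.09 and adjusted p = 0.00089 by limma with Benjamini-Hochberg) that lay between 0.57 and 0.67 with each library left out.

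Rpl39l, on chromosome 16 from 10170226 to 10174911, was 658, 697 and 641 RPM in 2-HG(-) and 909, 976 and 946 RPM in 2-HG(+). All 2-HG(+) libraries were higher, with a log2 fold change of 0.50 (SE 0.09 and adjusted p = 0.0026 by limma with Benjamini-Hochberg), and it was the only large subunit gene that passed. The coding sequences of Rpl39 and Rpl39l share 85.3% of aligned bases and those of Rps27 and Rps27l share 76.1%, in the closest pairs of GENCODE M21 transcripts. How the authors' counting divided reads between such copies was not analysed here, so these values are uncertain as those of single genes. The Rps27l and Rpl39l calls were kept with any 1 library left out.

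Rps3 was 999, 811 and 744 RPM in 2-HG(-) and 1024, 1222 and 1257 RPM in 2-HG(+). The lowest 2-HG(+) library was just above the highest 2-HG(-) library. The log2 fold change was 0.46 (SE 0.13 and adjusted p = 0.026 by limma with Benjamini-Hochberg), and the call was lost without replicate 2 or 3 of either group, with log2 fold changes between 0.37 and 0.43 and limma adjusted p between 0.062 and 0.11. Without a filter and with the replicate block the limma adjusted p was 0.062 and 0.073, and by the unmoderated test the adjusted p was 0.12.

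Rps4x, on chromosome X from 102184941 to 102189394, had the largest log2 fold change from a low level. Its 2-HG(-) libraries held 53, 27 and 29 reads and its 2-HG(+) libraries 55, 110 and 118, or 2.89, 1.80 and 1.74 RPM and 3.64, 6.61 and 7.71 RPM. The groups did not overlap, although 2-HG(+) replicate 1 stood close to 2-HG(-) replicate 1, and the log2 fold change was 1.12 (SE 0.24 and adjusted p = 0.0069 by limma with Benjamini-Hochberg). By the unmoderated per-gene test it did not pass (adjusted p = 0.084 after Benjamini-Hochberg over all genes).

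Among genes that did not pass, Rps14 was 622, 523 and 643 RPM in 2-HG(-) and 703, 725 and 734 RPM in 2-HG(+), without overlap and with a log2 fold change of 0.28 (95% interval 0.04 to 0.51, adjusted p = 0.068 by limma with Benjamini-Hochberg). Rps15 had 0.23 (adjusted p = 0.12 by limma with Benjamini-Hochberg) and Rpl4 had 0.23 (adjusted p = 0.14 by limma with Benjamini-Hochberg), also without overlap of the groups. Rpl41, Rpl30 and Rpl32 had 0.17, 0.14 and 0.15.

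Rpl8, Rpl32 and Rps21 varied together over the libraries. Rpl8 was 1120, 640 and 1062 RPM in 2-HG(-) and 916, 1301 and 1349 RPM in 2-HG(+), a log2 fold change of 0.36 (95% interval -0.13 to 0.85). For each of these genes the lowest 2-HG(-) library was replicate 2 and the lowest 2-HG(+) library was replicate 1, with 635 and 728 RPM for Rps21, whose log2 fold change was 0.06 and became -0.098 without 2-HG(-) replicate 2. Leaving out both of these libraries, a choice made after seeing the data, gave 6 higher and 0 lower genes by limma.

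Rps9 was the only gene of the 17 with a negative log2 fold change, and 1 library decided it. It stood at 1624, 1824 and 1744 RPM in 2-HG(-) and at 2166, 918 and 1918 RPM in 2-HG(+). The log2 fold change was -0.15 (95% interval -0.75 to 0.46) and was 0.24 without 2-HG(+) replicate 2 (adjusted p = 0.22 by limma with Benjamini-Hochberg). The low genes Rplp0 and Rpl32l, the latter annotated as a processed pseudogene and counted here by its symbol, had log2 fold changes of 0.35 and 0.12, with limma adjusted p of 0.12 and 0.59 after Benjamini-Hochberg adjustment.

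**Figure D3:**
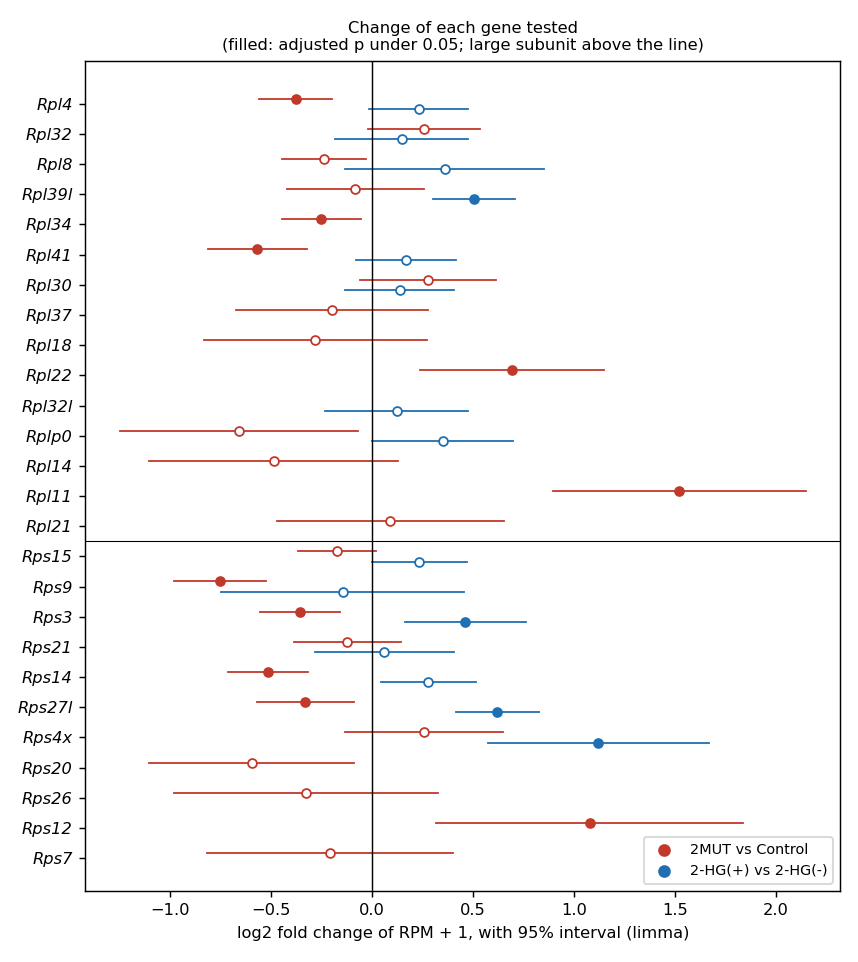
Log2 fold change of RPM + 1 with its 95% interval from limma for the ribosomal protein genes described, in 2MUT against Control (red) and in 2-HG(+) against 2-HG(-) (blue), with filled points where the adjusted p was under 0.05 and the large subunit above the line. Filled red points of genes of at least 100 RPM are all to the left of 0 and all filled blue points are to the right.

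The comparisons share no libraries, and 16 genes were tested in both. Of these, 12 had a negative log2 fold change in 2MUT and a positive one with 2-HG, 3 were positive in both and Rps9 was negative in both. Among all 9594 genes tested in both, 26.5% were negative in 2MUT and positive with 2-HG, and 33.3% of the 1470 genes that reached 100 RPM in each table were, against 11 of 13 ribosomal protein genes of that level. Rps27l and Rps3 are among the 3 genes that passed in both comparisons, each lower in 2MUT and higher with 2-HG, although the 2MUT calls of both and the 2-HG call of Rps3 were lost under the settings given above.

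The difference was tested as the change in 2MUT minus the change with 2-HG over the 12 libraries by limma. It was negative and past the threshold for 11 of the 16 genes and positive and past it for 0, against 19.5% and 19.9% of 9594 genes, 39.4% in all. At an unadjusted limma p under 0.05 the count of positive differences was also 0, and it was 0 by edgeR and by DESeq2. Of the 13 genes of at least 100 RPM in both tables, 9 had a negative difference past the threshold, against 29.3% of the 1470 genes of that level, of which 19.7% had a positive difference and 49.0% passed in all. The median difference was -0.61 over the 16 genes, against 0.05 over all genes.

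The 11 were 7 of the 9 small subunit genes tested and 4 of the 7 large subunit genes tested. The difference was -0.95 for Rps27l, -0.82 for Rps3 and -0.79 for Rps14 (adjusted p = 0.00015, 0.0018 and 0.00052 by limma with Benjamini-Hochberg). For these 3 genes it passed in all 12 fits that left out 1 library. Rps15 had -0.41 (adjusted p = 0.026 by limma with Benjamini-Hochberg). The Rps15 call was lost in 5 of the 12 fits, without 2-HG(+) replicate 2, 2-HG(-) replicate 3, 2MUT replicate 1 or Control replicate 2 or 3 (limma adjusted p between 0.052 and 0.066).

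In the large subunit, Rpl41 had -0.74 and Rpl4 had -0.61 (adjusted p = 0.0030 and 0.0025 by limma with Benjamini-Hochberg), both kept in all 12 fits. Rpl39l had -0.59 (adjusted p = 0.033 by limma with Benjamini-Hochberg), and this call was lost in 7 of the 12 fits, those without replicate 2 or 3 of 2-HG(+), 1 or 3 of 2-HG(-), 1 or 2 of 2MUT or 1 of Control (limma adjusted p between 0.053 and 0.086). The low genes that also passed were Rplp0 at -1.01 and Rps4x at -0.86 (adjusted p = 0.021 and 0.043 by limma with Benjamini-Hochberg).

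The Rplp0 difference was -0.94 and lost without 2-HG(-) replicate 3 (limma adjusted p = 0.051), and the call was also lost when 2-HG(-) replicate 2 and 2-HG(+) replicate 1 were both left out. That of Rps4x was kept in 3 of 12 fits, those without 2-HG(+) replicate 1, 2-HG(-) replicate 1 or Control replicate 3, and had limma adjusted p between 0.052 and 0.11 in the others. The difference of Rps9 was -0.61 (adjusted p = 0.16 by limma with Benjamini-Hochberg) and became -0.99 without 2-HG(+) replicate 2 (adjusted p = 0.00045 by limma with Benjamini-Hochberg). Rpl8 had -0.60 (adjusted p = 0.094 by limma with Benjamini-Hochberg), which passed without 2-HG(+) replicate 1 at -0.78 or without 2-HG(-) replicate 1 at -0.75 (limma adjusted p = 0.030 and 0.048). Rps21, Rpl32 and Rpl30 had -0.18, 0.11 and 0.14.

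**Figure D4:**
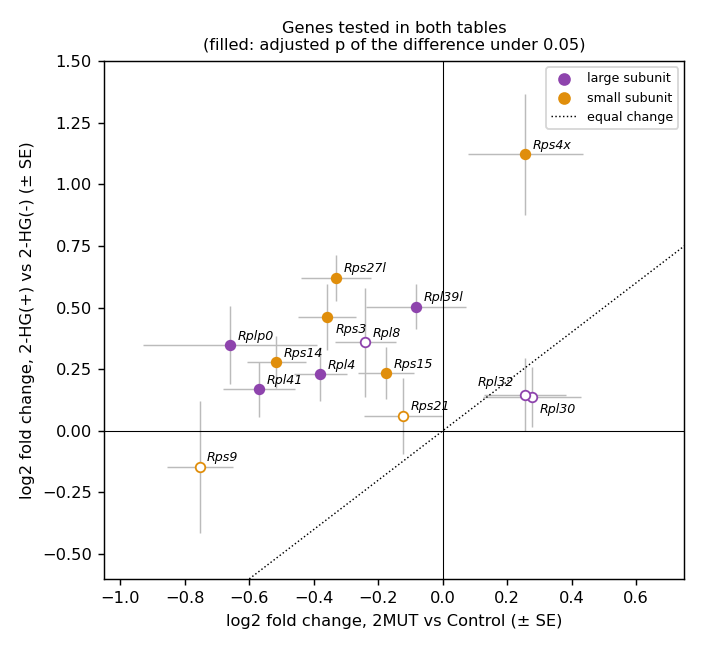
Log2 fold change in 2MUT against Control (horizontal) and in 2-HG(+) against 2-HG(-) (vertical) with standard errors for 14 of the 16 ribosomal protein genes tested in both tables, coloured by subunit and filled where the adjusted p of the difference was under 0.05. The upper left quadrant holds 10 genes, Rps9 lies at the lower left, and Rps4x, Rpl32 and Rpl30 lie at the upper right.

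Other genes of the translation machinery were followed in lists written for this purpose. In 2MUT, 9 of 15 elongation factors and other mRNAs known to carry a terminal oligopyrimidine tract were lower and 0 were higher. Their median log2 fold change was -0.45. Of all genes 17.3% were lower, and 25.5% of those of at least 100 RPM, a level that most of this list reached. The count of lower genes was 5 without 2MUT replicate 2 or Control replicate 3. The count of 0 was also 0 at an unadjusted limma p under 0.05 and by edgeR and DESeq2. Eef2, which moves the ribosome along the mRNA, fell from 8727 ± 534 to 6831 ± 388 RPM (SD, n = 3), a log2 change of -0.35 (adjusted p = 0.0091 by limma with Benjamini-Hochberg). Naca, a partner of the nascent chain, and Eif3k fell by 0.83 and 0.54 on the log2 scale. Vim, which is also among the fibroblast markers, fell by 1.29. With 2-HG, 2 of 14 genes of this list were higher and 0 were lower, against 16.1% and 16.7% of all genes, with a median of 0.23, Npm1 rising by 0.55 and Eif3h by 0.46. The 0 lower genes were also 0 at an unadjusted p and by the other tools, but 1 was lower without 2-HG(-) replicate 2. The higher count was 1 without 2-HG(+) replicate 2 or 2-HG(-) replicate 1 or 3.

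Rack1, a scaffold protein on the small subunit that the rule does not take in, is listed as Gnb2l1 in the first table and fell from 5475 ± 45.4 to 4414 ± 258 RPM (SD, n = 3), with a change of -0.31 (adjusted p = 0.012 by limma with Benjamini-Hochberg). The call was lost without 2MUT replicate 1, at -0.27 (limma adjusted p = 0.065). In the other table it was 2911 ± 380 RPM in 2-HG(-) and 3835 ± 503 RPM in 2-HG(+) (SD, n = 3), a log2 fold change of 0.40 (adjusted p = 0.060 by limma with Benjamini-Hochberg). There it passed without 2-HG(+) replicate 1, at 0.50 (limma adjusted p = 0.030), and by edgeR and DESeq2 (adjusted p = 0.040 and 0.0082).

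Translation initiation factors had 3 of 23 genes higher and 7 lower in 2MUT, with a median log2 fold change of -0.10, against 16.5% and 17.3% of all genes. The higher count was 1 without 2MUT replicate 2 and the lower count 4 without 2MUT replicate 1 or 2. Eif3d and Eif3g, subunits of the factor that binds the small subunit, fell by 0.80 and 0.65, while Eif5, which triggers GTP hydrolysis at the start codon, rose by 0.94. With 2-HG 14 of 23 were higher and 0 were lower, with a median of 0.47, and the 0 was the same at an unadjusted limma p and by edgeR and DESeq2. Of all genes 16.1% were higher, and the 14 became 7 without 2-HG(+) replicate 2 and 9 without 2-HG(+) replicate 3 or 2-HG(-) replicate 3. Eif3c rose by 1.25 and Eif2b3, of the exchange factor of eIF2, by 1.21.

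Ribosome biogenesis factors had the largest count with 2-HG, 35 of 52 higher and 0 lower, with a median log2 fold change of 0.56, and between 28 and 43 were higher with a library left out, against 16.1% of all genes in the fit to all libraries. The 35 include Nolc1, which reached the filter of 1 RPM only through the 2-HG(+) libraries. Its means were 0.703 RPM in 2-HG(-) and 2.075 RPM in 2-HG(+), a description that supports no call. Neither an unadjusted limma p nor edgeR or DESeq2 gave a lower gene. Nop56, of the particles that methylate ribosomal RNA, rose from 142 to 325 RPM by 1.19 on the log2 scale, Mrto4, a factor of stalk assembly, rose by 1.05 and Pno1, of the small subunit precursor, by 1.03. In 2MUT, 2 of 51 were higher and 6 were lower, with a median of -0.01, against 16.5% and 17.3% of all genes, Imp3 falling by 0.99 and Rrp1 by 0.95. The 2 became 1 without Control replicate 1 or any 1 of the 2MUT libraries, and 4 without Control replicate 3.

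RNA polymerase I and its factors had 1 of 14 genes higher and 4 lower in 2MUT and 3 of 15 higher and 0 lower with 2-HG, where 1 gene was lower at an unadjusted limma p under 0.05 and 0 by edgeR and DESeq2. The 4 lower genes were 2 without 2MUT replicate 2 or 3 or any 1 of the Control libraries, and the higher gene was lost without 2MUT replicate 2 or 3 or Control replicate 2. With 2-HG, 5 were higher without 2-HG(+) replicate 1 and 1 was lower without 2-HG(-) replicate 3. Mitochondrial ribosomal proteins, which translate in the mitochondrion, had 5 of 67 higher and 10 lower in 2MUT, with a median of -0.06, and 28 of 69 higher and 1 lower with 2-HG, with a median of 0.31. The 28 became 14 without 2-HG(+) replicate 2. In 2MUT the 10 became 6 without 2MUT replicate 2, and the 5 became 2 without 2MUT replicate 2 or 3 or Control replicate 2, 3 without Control replicate 1 and 8 without Control replicate 3. Of all genes, 33.8% were called in 2MUT and 32.8% with 2-HG. Mrps10 rose by 0.92 and Mrps21 was the lower gene, with -0.38, a call lost without 2-HG(+) replicate 1 or 2 or 2-HG(-) replicate 1 or 3. Set beside the cytosolic genes, with medians of -0.24 and 0.28, these are descriptions of lists and not tests between them.

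**Figure D5:**
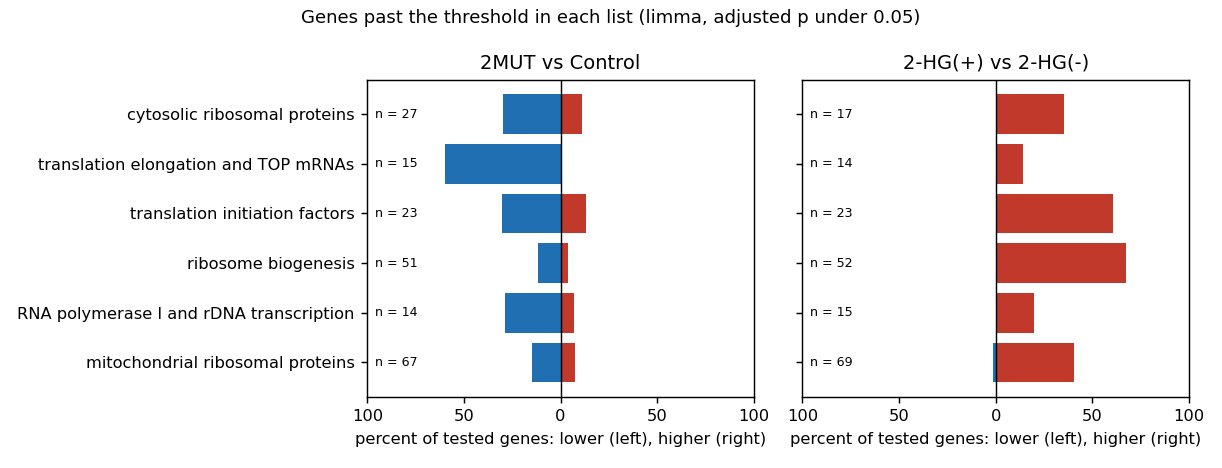
Percent of the tested genes of each list that were lower (blue, to the left) or higher (red, to the right) by limma at an adjusted p under 0.05, for 2MUT against Control and 2-HG(+) against 2-HG(-), with the number of genes tested at the left of each bar. In 2MUT 9 of 15 elongation and terminal oligopyrimidine genes were lower, and with 2-HG 35 of 52 ribosome biogenesis genes were higher.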

How the data were processed

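Sequencing was of Ion AmpliSeq transcriptome libraries. Alignment by the authors was with TMAP, and the AmpliSeqRNA plug-in gave the RPM that the authors deposited, in a table for each experiment. The genome build of the alignment is not given in the sources used here. Dividing by the RPM of a single read gave a whole number for 100% of entries, within a tolerance of 0.0011 RPM, and these reads were used in count tests.

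Groups came from the sample labels, and 0 columns were left without a sample. limma 3.58.1 in R 4.3.3 was fitted to log2(RPM + 1) of all genes whose mean reached 1 RPM, with a trend of the variance on the mean, with Benjamini-Hochberg adjustment and a threshold of 0.05. The study's per-gene test was run as an alternative, since limma shares the spread over genes with 3 libraries per group. edgeR 4.0.16 and DESeq2 1.42.0 on recovered reads, other scalings, filters, added values, the replicate block and each library left out were the other alternatives, and the classes at 100 RPM were chosen after seeing the values. The members and lists were chosen with earlier results of these data known. Named genes are those past a threshold, both-comparison calls, stalk genes, paralogs, the extremes of level and the largest changes of each list, and others were chosen after their values were seen. Some genes are counted but not reported singly here. The fits were tested on simulated data. Gene coordinates are from GENCODE M21 on GRCm38. Tables and plots used Python 3.11.15, pandas 2.3.3 and matplotlib 3.10.9.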

Additional observations from a re-analysis of the deposited data

Results flagged for a closer look

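The changes of 11 of the 16 ribosomal protein genes tested in both tables differed between the comparisons by limma with Benjamini-Hochberg adjustment. Of all 9594 genes 39.4% passed this test, and 49.0% of the 1470 genes of at least 100 RPM in both tables. Each of the 11 had a smaller value in 2MUT than with 2-HG, and 9 of them are given here. As the change in 2MUT minus the change with 2-HG on the log2 scale, the differences in the small subunit were -0.95 for Rps27l, -0.86 for Rps4x, -0.82 for Rps3, -0.79 for Rps14 and -0.41 for Rps15. In the large subunit they were -1.01 for Rplp0, -0.74 for Rpl41, -0.61 for Rpl4 and -0.59 for Rpl39l. The comparisons come from separate experiments and tables, one with a stable cell pool and the other with a treatment of 24 h, and experiment and agent cannot be told apart. Rps4x and Rplp0 had means under 10 RPM in both tables. With 1 library left out, the calls of Rps4x, Rpl39l, Rps15 and Rplp0 were lost in 9, 7, 5 and 1 of the 12 fits.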

How the results depend on the processing

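Of the counts, medians and sums of the ribosomal protein genes, 220 values under an alternative were scored as the same and 11 as moved. A count was scored as the same within a fixed ratio, and a median or sum within the spread of replicate libraries. The 6 higher genes with 2-HG becoming 9 by DESeq2 were thus scored as the same. The 3 higher genes in 2MUT became 0 with a filter at 10 RPM and 0 among genes of at least 100 RPM, a setting chosen after seeing the data, and between 1 and 4 with a library left out. The 8 lower genes became 5 with the unmoderated per-gene test and lay between 6 and 8 with a library left out. The median log2 fold change in 2MUT was -0.12 without a filter, over 78 genes, and between -0.30 and -0.14 with a library left out. Of the differences between the comparisons, 1 was positive and past the threshold without a filter, and the negative ones lay between 7 and 12 with a library left out, 7 of them without 2-HG(-) replicate 3. The cause was not tested. No scaling moved the median of all genes by over 0.1.

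Signs turned for Rpl39l in 2MUT, which lay between -0.22 and 0.10 with a library left out and was above 0 without 2MUT replicate 1 or Control replicate 1. They turned for Rps9 with 2-HG, between -0.38 and 0.24 and above 0 without 2-HG(+) replicate 2. The difference for Rpl32 was -0.025 with quantile normalization and lay between -0.045 and 0.25 with a library left out, below 0 without 2-HG(+) replicate 1 or Control replicate 1. With 2-HG, Rps21 was -0.012 without 2-HG(+) replicate 2 and -0.098 without 2-HG(-) replicate 2, and Rpl32l was -0.015 without 2-HG(-) replicate 2. In 2MUT, Rpl21 was -0.01 with quantile normalization. None of these turned values passed the threshold. Of the values followed for single genes of the comparisons, 881 kept their call, 72 lost it, 17 gained it and 6, those of Rpl39l, Rps9 and Rpl32 above, changed sign. With the replicate block the differences of Rpl39l, Rplp0, Rps15 and Rps4x did not pass (limma adjusted p = 0.078, 0.051, 0.055 and 0.086).

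Replicate numbers did not pair the libraries, since the correlations of same-numbered libraries were 0.0708, 0.0293 and 0.0319 in the first experiment and -0.457, -0.158 and 0.0572 in the second. Differently numbered libraries lay between -0.138 and 0.0888 in the first and between -0.414 and 0.48 in the second. The highest value was for 2-HG(-) replicate 2 with 2-HG(+) replicate 1, the libraries in which Rpl8, Rpl32 and Rps21 were lowest. What these libraries share was not tested. With the replicate block there were 4 higher and 8 lower genes in 2MUT, 5 higher and 0 lower with 2-HG, and 7 negative differences.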

Other observations

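Regulators of ribosomal protein output and genes of the p53 response were also listed. With 2-HG, Eif4ebp1, the repressor of eIF4E that mTOR phosphorylates, rose from 83.1 to 245 RPM, a log2 fold change of 1.56, and Myc, a driver of ribosome production, rose from 77.8 to 137 RPM by 0.80 (adjusted p = 1.9e-05 and 0.0010 by limma with Benjamini-Hochberg). Maf1, a repressor of RNA polymerase III, fell by 0.63 with 2-HG and rose by 0.50 in 2MUT. Of 18 regulators, 3 were higher and 1 was lower in each comparison, against 33.8% of all genes called in 2MUT and 32.8% with 2-HG, and the single genes are given as values. The 3 in 2MUT were 1 without 2MUT replicate 3, the 1 lower was lost without any 1 of the 2MUT libraries and was 2 without Control replicate 3, and Maf1 with 2-HG was lost without 2-HG(-) replicate 1. In 2MUT, Gabpa, an ETS factor, rose by 0.79 and Mtor by 0.45, and Mnt, an antagonist of Myc, fell by 0.37.

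Of 14 p53 response genes, 3 were higher and 5 were lower in 2MUT and 5 were higher and 1 was lower with 2-HG, beside those same 33.8% and 32.8% of all genes. The 3 were 1 without any 1 of the 2MUT libraries and 2 without any 1 of the Control libraries. Eda2r and Gadd45a moved in opposite directions, with log2 fold changes of -1.52 and -0.76 in 2MUT and 1.18 and 1.37 with 2-HG, as did Rps27l, while Sesn2 rose in both, by 1.20 and 0.91. Over the 14 genes the median log2 fold change was 0.10 in 2MUT and 0.24 with 2-HG, so the list did not follow Rps27l in 2MUT.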
